A study of Mus musculus with 16 samples.

Results

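Zrsr1, Mcts2, Nap1l5 and Inpp5f, genes at which mouse retrogenes are imprinted, and the host genes Commd1, H13 and Herc3, in whose introns Zrsr1, Mcts2 and Nap1l5 lie, were examined across 16 stem cell lines. These 7 genes were taken by name from the 22552 genes of the expression table, all 7 were present, and all 7 passed the filter of a mean of at least 0.5 FPKM that left 13185 genes for testing. FPKM is a read count scaled for the size of the transcript and of the library. The set was chosen by the earlier observation, in the same values, that Zrsr1 was lower in F than in P lines of both kinds, so differences between F and P lines are given as a description with no test, and the comparison of AI with AN lines is the one that was tested.

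All lines carried the 129-M2rtTA strain background and were derived from adipocyte progenitor cells (APCs) of mice made from one induced pluripotent line, so that the same doxycycline-inducible reprogramming factors lay at the same insertions in both kinds. AN lines were nuclear transfer embryonic stem cells, made by placing an APC nucleus into an enucleated oocyte, and AI lines were induced pluripotent stem cells made from APCs by induction of the factors. The letters F and P stand for fully and partially reprogrammed, which the study decided by tetraploid complementation, a test of whether the injected cells can form a whole mouse, and the sample records do not give this assignment. Of the AN lines, AN1, AN9, AN15 with AN20 made up the 4 of AN F, while AN2, AN3, AN5, AN6 with AN7 made up the 5 of AN P. Of the AI lines, GS32, AI3, AI7 with AI10 were the 4 of AI F and GS4, GS9 with AI9 were the 3 of AI P. Each line gave 1 library and is the replicate. AN lines were at passage 5 to 7 and the AI lines with AI names at passage 7, whereas GS9, GS32 and GS4, which had been identified in earlier work, were at passage 6, 13 and 17. The source entries of GS9 and GS32 name GS4, which conflicts with their titles, and the titles were used.

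Imprinted genes are transcribed from 1 parental allele, set by DNA methylation placed in the germ line and kept through development. A retrogene arises when a messenger RNA is copied back into the genome. Several imprinted mouse retrogenes were copied from X-linked genes into an intron of an autosomal host and are expressed from the paternal allele, with a maternally methylated CpG-rich promoter. Transcription of Mcts2 is known to go with the choice of polyadenylation site in H13. For Inpp5f the imprinted product is a transcript variant that starts within an intron, which gene-level values cannot separate from the whole gene.

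In the GENCODE annotation of mm9, Zrsr1 was a single exon at chr11:22873215-22876498 on the plus strand, inside Commd1 (chr11:22734744-22882382, minus strand). A stretch of 203 bases of Zrsr1 was also annotated as exon of Commd1 on the opposite strand, and the library kit named in the labels does not mark strand, so reads from those bases cannot be told apart. Mcts2, a single exon of 793 bases at chr2:152512884-152513676, lay in an intron of H13 (chr2:152495197-152534406) on the same plus strand, with 0 exon bases shared. Nap1l5 was a single exon at chr6:58855228-58857120 on the minus strand, inside Herc3 (chr6:58781459-58870392, plus strand), again with 0 exon bases shared. The retrogene was spanned by 5 of 7 annotated transcripts of Commd1, 4 of 7 of H13 and 2 of 9 of Herc3. The gene-level values of the hosts do not separate these transcripts from the others. The authors name their annotation only as mm9, and the gene models behind the FPKM values can differ from these. Shared bases, spanning transcripts and distances between starts are therefore given for this annotation alone. Inpp5f was at chr7:135754842-135839939 on the plus strand. The start of the retrogene was 9.17 kb from that of the host for Zrsr1, 17.7 kb for Mcts2 and 75.7 kb for Nap1l5.

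**Figure D1:**
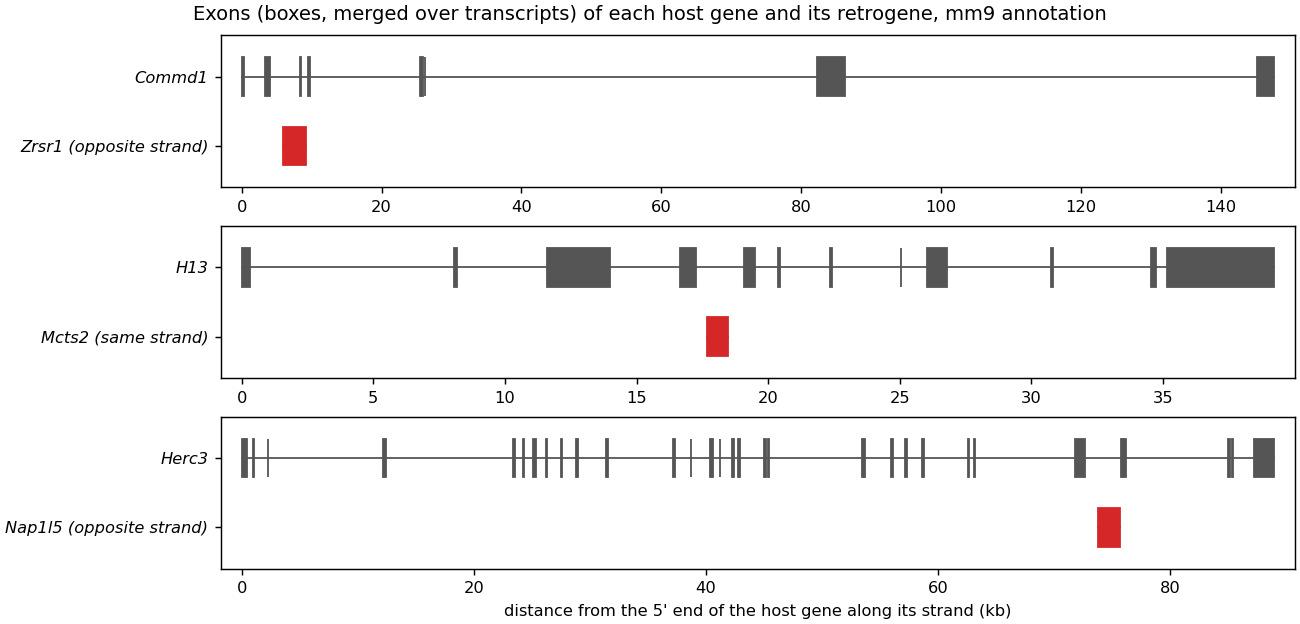
Exon maps of the 3 host genes (grey) and their retrogenes (red) from the mm9 annotation, with distance in kb from the 5' end of the host on the x axis and boxes for exons merged over transcripts. Mcts2 shares its strand with H13, whereas Zrsr1 and Nap1l5 lie on the opposite strand to their hosts.

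Reads of 50 bases were sequenced, so that copies of a gene elsewhere could share reads. Of all 50-base windows in the exons, 1.08% of those of Mcts2 occurred more than once in the mm9 genome, as did 2.1% for Herc3, 2.5% for Inpp5f and 0.0375% for Commd1, and none for Zrsr1, Nap1l5 and H13. Only exact matches to the unspliced genome were counted. Windows that match with a mismatch or across an exon junction of another gene are not covered, so shared reads are not excluded.

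The promoters of the 3 retrogenes are shown because in imprinted retrogenes the methylated region is known to lie at the promoter. They run from 250 bases before to 50 after the RefSeq start (RefSeq on GRCm38.p6). Each occurs once on the strand of its gene in its own mm9 chromosome, and other chromosomes were not searched. The places are chr2:152512634-152512933 on the plus strand for Mcts2, chr6:58857071-58857370 on the minus strand for Nap1l5 and chr11:22871755-22872054 on the plus strand for Zrsr1. The RefSeq start is also the start of the mm9 gene model for Mcts2 and Nap1l5, whereas for Zrsr1 it lies 1210 bases upstream of the annotated exon, so that this window does not reach that exon. Capitals mark TGCCGC, the core of the motif bound by ZFP57, a zinc finger protein that keeps imprints, on either strand.
Mcts2: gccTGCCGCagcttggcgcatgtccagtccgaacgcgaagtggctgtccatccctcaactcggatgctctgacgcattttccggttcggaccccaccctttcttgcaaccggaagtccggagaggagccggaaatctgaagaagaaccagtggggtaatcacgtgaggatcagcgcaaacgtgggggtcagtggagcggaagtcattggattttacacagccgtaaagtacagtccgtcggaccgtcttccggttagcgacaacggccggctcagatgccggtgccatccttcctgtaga
Nap1l5: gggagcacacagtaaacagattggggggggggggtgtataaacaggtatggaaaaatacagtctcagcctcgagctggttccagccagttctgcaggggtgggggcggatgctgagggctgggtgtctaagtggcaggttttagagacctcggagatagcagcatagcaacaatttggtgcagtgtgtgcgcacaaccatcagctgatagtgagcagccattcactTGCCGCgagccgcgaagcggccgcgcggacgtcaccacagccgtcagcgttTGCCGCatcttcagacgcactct
Zrsr1: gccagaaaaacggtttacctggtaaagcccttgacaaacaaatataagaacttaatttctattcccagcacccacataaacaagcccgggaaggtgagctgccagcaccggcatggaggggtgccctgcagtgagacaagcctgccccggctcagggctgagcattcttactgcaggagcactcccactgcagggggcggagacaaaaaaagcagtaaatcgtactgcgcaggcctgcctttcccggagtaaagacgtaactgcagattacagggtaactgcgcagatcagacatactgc

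TGCCGC was found 1 time in the promoter of Mcts2 and 2 times in that of Nap1l5, and 0 times in those of Zrsr1, H13, Herc3 and Inpp5f. The Inpp5f window is that of the whole gene, with its RefSeq start 37 bases downstream of the mm9 gene start. The start of the imprinted variant within an intron was not searched. Of the RefSeq promoters of Commd1, 1 held it. In all, 11.6% of 32851 RefSeq promoters of the same length held the motif. The Mcts2 promoter had 25 CpG, that of Nap1l5 17 and that of Zrsr1 10, against a median of 7 over all promoters. The RefSeq start of Herc3 lies 2235 bases downstream of the first base of its mm9 gene model. All counts hold for these windows alone, which need not be the starts used in these lines. These letters are a description of the sequence and not of binding or methylation, which were not analysed here.

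The 3 host and retrogene pairs differed widely in level. Averaged over the 16 lines, the FPKM level was 48.2 for Commd1, 28.6 for Mcts2, 16.2 for H13, 7.15 for Zrsr1, 6.01 for Inpp5f, 5.24 for Herc3 and 0.61 for Nap1l5. Commd1 was above Mcts2 in 16 of 16 lines, H13 above Zrsr1 in 16 and Herc3 above Nap1l5 in 16. Mcts2 was above H13 in 13 lines, Zrsr1 above Inpp5f in 11 and Inpp5f above Herc3 in 11, so the order of those neighbours was not the same in every line. Nap1l5 was low in every line, and 2.56% of the tested genes had a lower mean.

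The steps between FPKM values gave whole numbers of reads, within 0.05 of a read, for 6 of the 7 genes. They were 238 to 714 reads per line for Mcts2, 521 to 1126 for Zrsr1, 597 to 1074 for Commd1, 394 to 873 for Herc3 and 550 to 1063 for Inpp5f, and were not resolved for H13. Nap1l5 rested on 7 to 47 reads per line, so that counting error alone was 37.8% of its lowest value. The depth of the lines relative to AN1 was 0.961 to 1.26. In AN1, 734 reads gave 48.9 FPKM for Commd1 and 379 reads gave 26.3 FPKM for Mcts2. As FPKM is scaled for size, the models behind these values were close in size. Merged exons of the mapped annotation held 8388 bases for Commd1 and 793 for Mcts2, so the values did not rest on all these exons of Commd1.

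Zrsr1 encodes a relative of the small U2AF splicing subunit that acts at 3' splice sites of minor introns. Its FPKM was 5.09, 5.73, 6.85 and 6.07 in AN F (AN1, AN9, AN15, AN20, in this order throughout), and 7.94, 8.25, 7.78, 8.80 and 8.85 in AN P, in the order AN2, AN3, AN5, AN6, AN7. It was 5.02, 6.09, 5.32 and 6.98 in AI F, in the order AI3, AI7, AI10, GS32. In AI9, GS4 and GS9, which form AI P, it reached 7.32, 8.52 and 9.72. All 8 F lines were below all 8 P lines, which is the pattern the set was selected on, with the closest values being 6.98 in GS32 and 7.32 in AI9. Group means in AN were 5.93 ± 0.736 (SD, n = 4) for F and 8.33 ± 0.488 (SD, n = 5) for P, and in AI they were 5.85 ± 0.877 (SD, n = 4) for F and 8.52 ± 1.2 (SD, n = 3) for P. F was 0.713 of P in AN and 0.687 of P in AI. The 10 fibroblast markers had a median F minus P of 1.01 on the log2(FPKM + 1) scale in AI and -0.25 in AN, and the 8 pluripotency markers one of -0.37 in AI and 0.10 in AN. Both medians thus had opposite signs in the 2 kinds, while the difference of Zrsr1 was below 0 in both, and the part of these markers in the Zrsr1 values was not tested.

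Among the 13185 tested genes, F lines were below P lines without overlap for 94 genes in AN (0.713%) and for 421 genes in AI (3.19%). F lines were above P lines without overlap for 77 genes in AN (0.584%) and 223 in AI (1.69%). Zrsr1 was the 1 member among the genes below in each kind, and 0 members were among those above. In both kinds at once, 3 genes had F below P, namely Dpcd, Zdhhc18 and Zrsr1, and for 2 of them, Zdhhc18 and Zrsr1, all F lines were below all P lines. These genes were named after their values were seen, and since the rule used this contrast, nothing is read from the count.

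Short genes relative to long ones also varied between lines. In each line, the median log2 level of protein-coding genes with under 1500 exon bases minus that of genes with at least 4000, each gene relative to its mean over lines, was taken. Among AN lines it had a median of -0.0385 for F and 0.028 for P, and among AI lines -0.1185 for F and 0.077 for P. Its median was thus lower in F than in P lines in both kinds, as Zrsr1 was, with ranges that overlapped. As a description over the 16 lines, Zrsr1 had an r of 0.712 with this measure (rho 0.759). These values were not centred on their group, so r holds the difference between F and P by which the set was chosen. Nothing is read from its size. With 3284 exon bases in the annotation, Zrsr1 itself was in neither length class. With the length trend of each line removed, a setting chosen after seeing the data, Zrsr1 in F minus P was -0.41 on the log2 scale in AN and -0.42 in AI, against -0.43 and -0.47 in the values as deposited. The part of gene length in the Zrsr1 values was not tested.

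**Figure D2:**
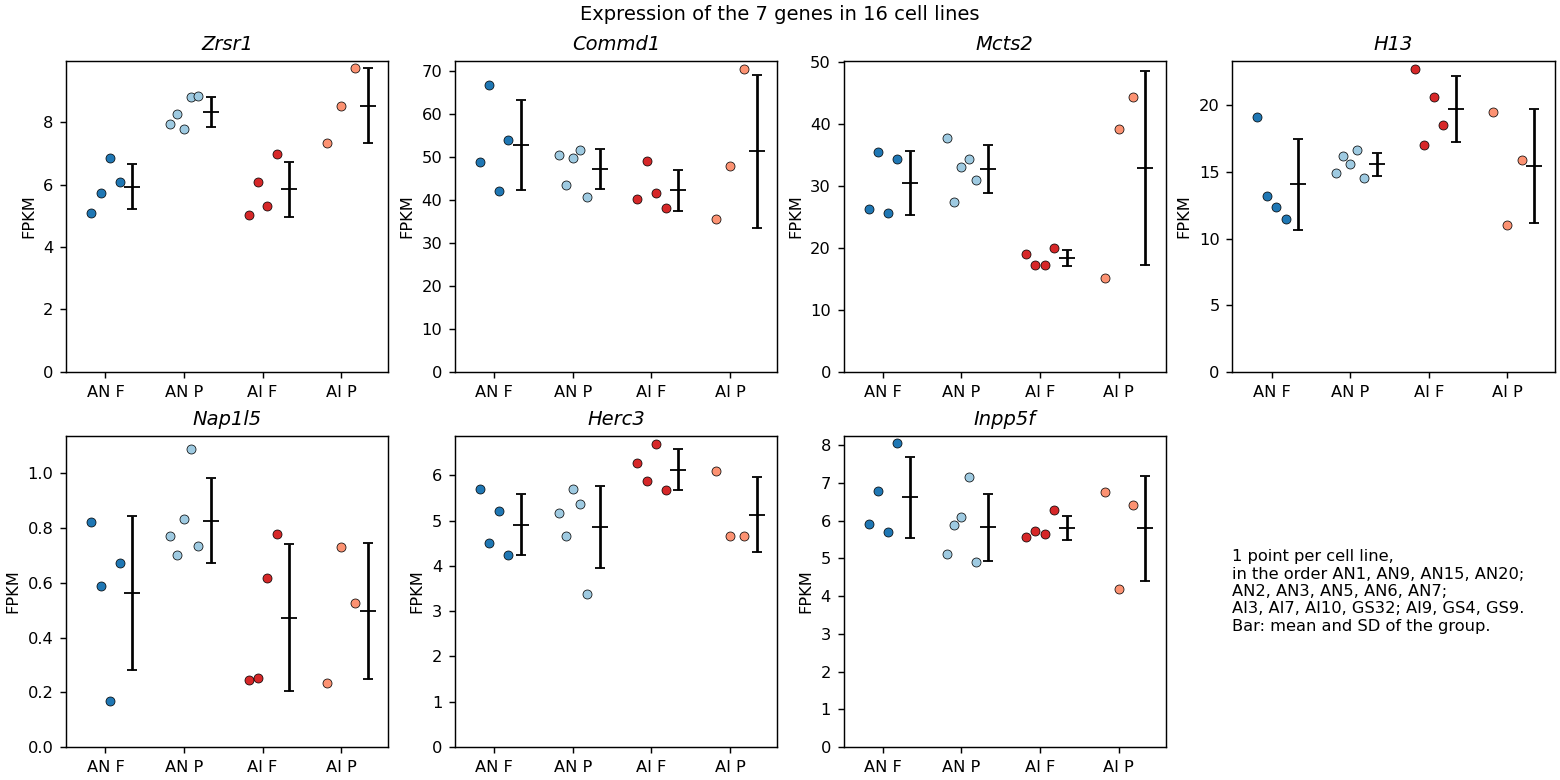
FPKM (y axis) of each of the 7 genes in the 16 cell lines by group (x axis), with 1 point per line and bars for the mean and SD. Zrsr1 is lower in F than in P lines of both kinds, by which the set was chosen, and Mcts2 is between 15.1 and 19.9 FPKM in AI F and AI9 but at least 25.7 in all other lines.

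Commd1, a COMM domain protein of copper handling and endosomal sorting, overlapped between F and P lines in both kinds. It was 48.9, 66.7, 42.0 and 53.9 FPKM in AN F and 50.4, 43.6, 49.7, 51.6 and 40.8 in AN P. In AI F it was 40.2, 49.1, 41.7 and 38.2 FPKM, and in AI P 35.5, 47.9 and 70.5. The highest value, in GS9, came with the highest Zrsr1.

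Mcts2, a copy of Mcts1, encodes a protein of the kind that works with DENR in reinitiation of translation. It stood at 26.3, 35.4, 25.7 and 34.3 FPKM in AN F and at 37.8, 27.4, 33.0, 34.4 and 31.0 in AN P. In AI F it was 19.0, 17.2, 17.3 and 19.9, and in AI P it was 15.1 in AI9, 39.2 in GS4 and 44.3 in GS9. The 4 AI F lines and AI9 were below every AN line, while GS4 and GS9 were above every AN line. This split of the AI lines was seen in the Mcts2 values themselves, and the share of all genes with it was not counted. For AI3, AI7, AI10 and AI9 alone, 54 of the 13185 tested genes (0.41%) were below all 9 AN lines. The log2(FPKM + 1) level differed between AI F and AI P by -0.68 and between AN F and AN P by -0.11, with pooled SDs of 0.522 and 0.202.

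H13 encodes signal peptide peptidase, an intramembrane protease of the endoplasmic reticulum. Its FPKM was 19.1, 13.2, 12.4 and 11.5 in AN F and 14.9, 16.2, 15.6, 16.6 and 14.5 in AN P. Among AI lines it was 22.7, 17.0, 20.6 and 18.5 for F, then 19.5, 11.0 and 15.9 for P. The 5 AI lines with low Mcts2 had H13 of 17.0 to 22.7 FPKM, and the 9 AN lines 11.5 to 19.1, so these ranges overlapped.

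Nap1l5 belongs to the nucleosome assembly protein family. It was 0.823, 0.587, 0.167 and 0.671 FPKM in AN F and 0.773, 0.702, 0.835, 1.09 and 0.733 in AN P. Among AI lines it was 0.244, 0.252, 0.617 and 0.778 for F, then 0.234, 0.73 and 0.528 for P. AN15, AI3, AI7 and AI9 were below 0.3 FPKM, on 7 to 12 reads each, and every other line was above 0.5. Herc3, a ubiquitin ligase with HECT and RCC1-like domains, ranged from 3.37 to 5.71 FPKM in AN, 5.67 to 6.7 in AI F and 4.65 to 6.09 in AI P. Inpp5f, a phosphoinositide phosphatase of endosomes, was 4.9 to 8.05 FPKM over AN lines, 5.57 to 6.28 over AI F and 4.19 to 6.77 over AI P, and its groups overlapped throughout.

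To ask whether the members depended on the kind of reprogramming, AI lines were compared with AN lines as the mean difference over F and P. With limma's moderated test across all 13185 genes, 0 genes (0.0%) passed an adjusted p of 0.05, so 0 of the 7 members did. At an unadjusted p under 0.05 there were 464 genes (3.52%), 179 higher and 285 lower in AI, and Mcts2 was the 1 member among them. Mcts2 was lower in AI by a log2(FPKM + 1) difference of -0.40 with a standard error of 0.173, an unadjusted limma p of 0.0335 and an adjusted p of 0.9992. H13 differed by 0.22 and Herc3 by 0.17, both with higher means in AI, and Nap1l5 by -0.19, Commd1 by -0.12, Inpp5f by -0.09 and Zrsr1 by 0.002, all at an adjusted p of 0.9992 in limma. The exact two-sided permutation test over all 3920 exchanges of AN and AI within F and within P gave p = 0.0605 for Mcts2, 0.0908 for Herc3, 0.118 for Nap1l5, 0.136 for H13, 0.397 for Inpp5f, 0.422 for Commd1 and 0.979 for Zrsr1.

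The Mcts2 difference came from part of the lines. It was -0.69 (SE 0.240) between AI F and AN F, with an adjusted p of 0.4813 in limma, and -0.12 (SE 0.248) between AI P and AN P, with an adjusted p of 0.8715 in limma. Whether these differ was not tested because the set was chosen on F against P. Leaving out AI9 alone brought the overall difference to -0.17. As an alternative to the comparison of all lines, GS4, GS9 and GS32 were left out, which keeps the 4 AI lines made within the study. The difference was then -0.89 (SE 0.117), with an adjusted p of 0.0116 in limma and an exact permutation p of 0.00476, the smallest that the 210 exchanges allow. Over the same 13 lines H13 differed by 0.41 (exact permutation p = 0.00952), Commd1 by -0.33 (exact permutation p = 0.0143) and Nap1l5 by -0.37 (exact permutation p = 0.0429). For Herc3 the difference was 0.30 (exact permutation p = 0.0667), for Zrsr1 -0.13 (exact permutation p = 0.0762) and for Inpp5f 0.005 (exact permutation p = 0.967). These single-gene p-values are not adjusted, and in limma Mcts2 was the only one of the 7 that passed over all genes.

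That fit of 13 lines called 9 genes (0.0683%), 7 higher and 2 lower in AI, and 8 of the 9 were small RNA genes. AI9 was then the only AI P line, gave no spread of its own and was assumed to vary like the other lines, and 5 of the 9 genes were above 0 only in AI9. Mcts2 was the one called gene that was no small RNA gene. Over the genes tested, 54 (0.41%) had all 4 of these AI lines below all 9 AN lines and 33 (0.25%) above. Mcts2 was the 1 member below and Herc3 the 1 member above.

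The lines with low Mcts2 were compared in other measures. The summed FPKM of 10 fibroblast markers, genes that MEF feeder cells would also express, was 1240 to 2380 in the 5 lines with low Mcts2, 964 to 2410 in the AN lines, and 624 and 675 in GS4 and GS9. The low-Mcts2 lines and the AN lines thus overlapped, and GS4 and GS9 had the lowest sums. Total FPKM was 661973 to 722344 in the 5 lines, 672016 to 850666 in AN and 815102 to 963434 in GS4 and GS9. The short-minus-long measure was -0.132 to 0.023, -0.179 to 0.204 and 0.077 to 0.332 in the same order. Over the 16 lines, as a description, Mcts2 had an r of 0.785 with total FPKM (rho 0.841) and of 0.617 with the short-minus-long measure (rho 0.634). H13 ran the other way, with an r of -0.503 with total FPKM (rho -0.709) and of -0.205 with the short-minus-long measure (rho -0.355). The part of these measures in the levels of the 2 genes was not tested. With the length trend of each line removed, the AI minus AN difference of Mcts2 was -0.42, and with median-ratio scaling, which sets the lines to a common size, it was -0.40. The part of the fibroblast markers in the Mcts2 values was not tested. In bulk RNA, fewer cells of a type and less RNA per cell cannot be told apart.

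**Figure D3:**
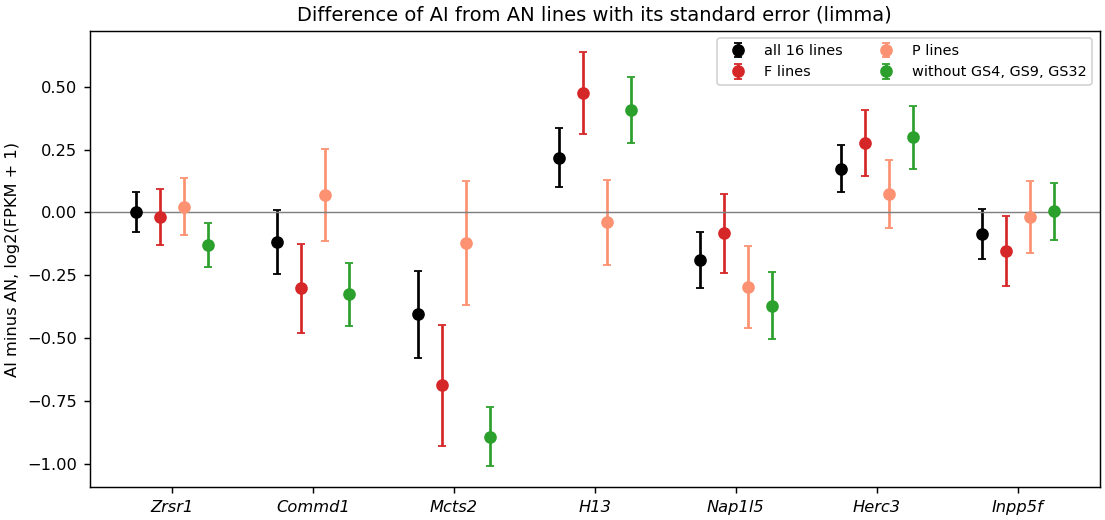
Difference of AI from AN lines in log2(FPKM + 1) (y axis) for each gene (x axis), as points with limma's standard error, over all 16 lines, within F lines, within P lines and without GS4, GS9 and GS32. Mcts2 is at -0.40 over all lines and at -0.89 without the GS lines.

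The ratio of retrogene to host within a line, as the difference of their log2(FPKM + 1), was compared in the same way. Mcts2 was 1.38 to 2.98 times the FPKM of H13 over AN lines and 0.836 to 1.08 times in AI F. In AI P it was 0.774 times in AI9, 3.56 times in GS4 and 2.79 times in GS9. The log2 ratio was 1.05 in AN and 0.42 in AI, a difference of -0.62, with an exact permutation p of 0.0605. For Nap1l5 to Herc3 the log2 ratio was -1.80 in AN and -2.17 in AI, a difference of -0.36 with an exact permutation p of 0.0286. Without GS4, GS9 and GS32 it was -0.67 with an exact permutation p of 0.00952. For Zrsr1 to Commd1 the difference was 0.12 with an exact permutation p of 0.414. With Benjamini-Hochberg adjustment over the 3 ratios, these exact permutation p-values became 0.0907, 0.0858 and 0.414, so none passed. The Nap1l5 ratio rested on few reads, and with a pseudocount of 0.1 its exact permutation p was 0.0666.

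**Figure D4:**
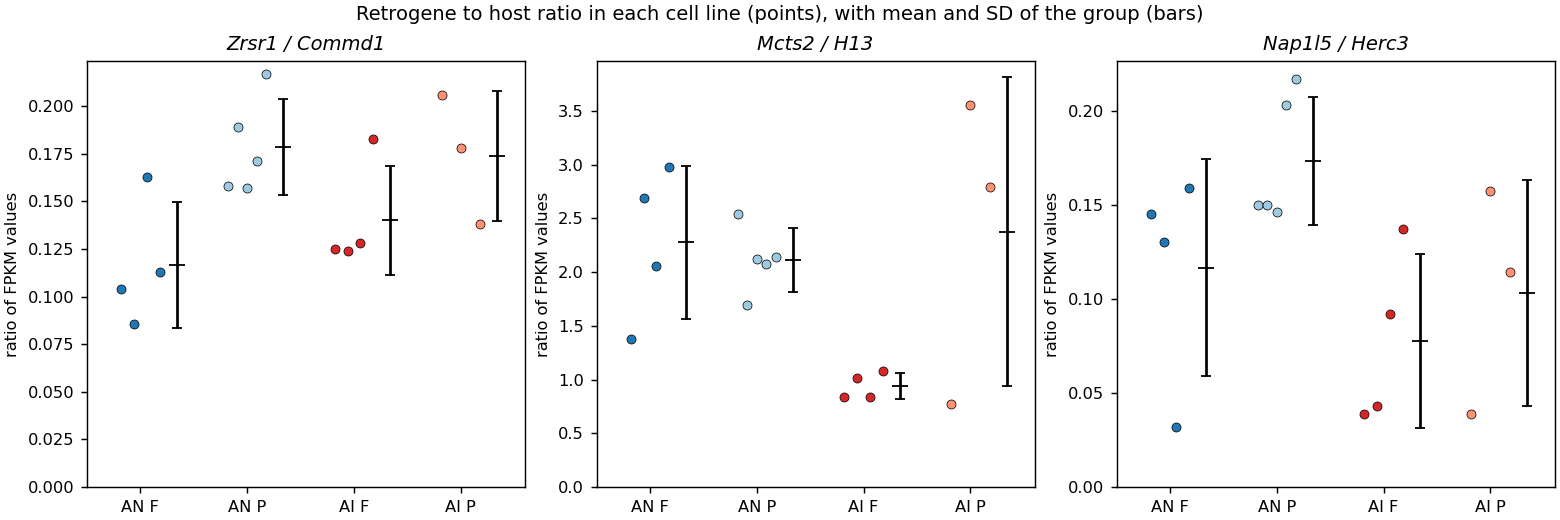
Ratio of the FPKM of each retrogene to that of its host (y axis) in the 16 lines by group (x axis), with 1 point per line and bars for the mean and SD. Mcts2 to H13 is between 0.774 and 1.08 in the AI F lines and AI9 and at least 1.38 in the others.

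Whether retrogene and host varied together was examined across the lines, with values centred on the mean of their group. For H13 and Mcts2, Pearson's r was -0.523 (permutation p = 0.0384, adjusted over 9 relations 0.221) and Spearman's rho was -0.3 (permutation p = 0.255). When values were permuted only within groups, an alternative chosen after seeing the data, the exact p for r was 0.305. Permuting over all 16 lines takes the centred values as exchangeable between groups. Mcts2 had a log2 SD of 0.1 in AI F and 0.817 in AI P, so permutation p-values over all lines may be too small. Without the 2 lines whose H13 was farthest from the median, AN1 and GS4, r was -0.458. It was -0.426 within the 9 AN lines (exact permutation p = 0.268) and -0.594 within the 7 AI lines (exact permutation p = 0.155). Without AI9 alone, r was -0.167.

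For Commd1 and Zrsr1, r was 0.215 (permutation p = 0.424) and rho 0.0735 (permutation p = 0.786), and without GS9 and AI9 r was -0.281. The r within AN was -0.411 (exact permutation p = 0.267) and within AI 0.569 (exact permutation p = 0.176). For Herc3 and Nap1l5, r was -0.0867 (permutation p = 0.752) and rho -0.129 (permutation p = 0.635), with 0.158 in AN and -0.52 in AI, and -0.0623 without the 2 farthest lines. Of the 6 relations among Zrsr1, Mcts2, Nap1l5 and Inpp5f, that of Mcts2 with Nap1l5 had the highest r, 0.492 (permutation p = 0.049, adjusted 0.221), with a rho of 0.497 (permutation p = 0.053) and an exact p of 0.0993 within groups. Without the 2 farthest lines it was 0.441. Mcts2 and Zrsr1 had an r of 0.425 (permutation p = 0.0985), with -0.126 within AN and 0.626 within AI. It was 0.054 without AI9 and 0.587 (permutation p = 0.0241) without the 2 farthest lines, GS32 and AN15. The other 4 relations had r between -0.144 and 0.0876. After adjustment over the 9 relations, none passed.

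**Figure D5:**
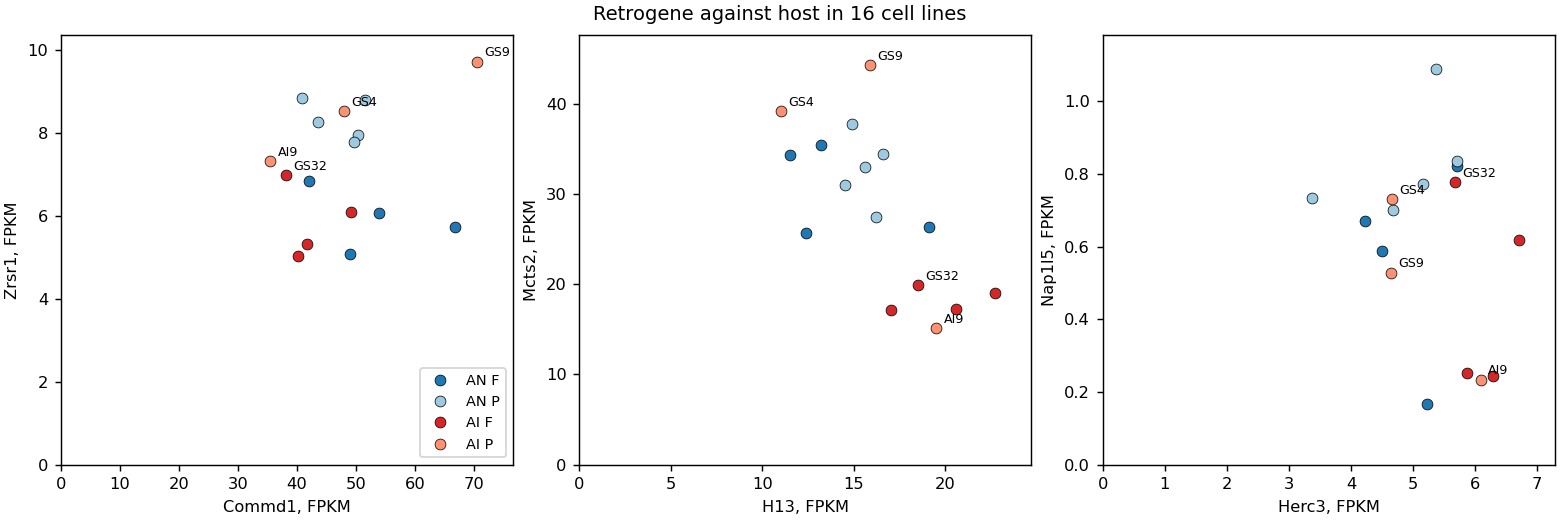
FPKM of each retrogene (y axis) against that of its host (x axis) in the 16 lines, coloured by group, with AI9 and the 3 GS lines named. The 4 AI F lines and AI9 lie apart from the rest at low Mcts2 and 17.0 to 22.7 FPKM of H13. The groups mix for Nap1l5, whereas AI3, AI7, AI10 and AI9 have Herc3 of 5.87 to 6.7 FPKM, above every AN line.

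The genes most like the imprinted genes in their log2(FPKM + 1) over the 16 lines are given as a description, since any gene has such neighbours among 13185. For Zrsr1 they were Ndufa13, a subunit of respiratory complex I (r = 0.848), Vps28, an endosomal sorting subunit (r = 0.828), and Abhd3 (r = 0.824). For Mcts2 they were Mrps25, a mitochondrial ribosomal protein (r = 0.903), 2700062C07Rik (r = 0.899) and Syngr1 (r = 0.886). For Nap1l5 they were Blvra (r = 0.757), Arl2bp (r = 0.755) and Ghitm (r = 0.743), and for Inpp5f Fam135a (r = 0.893), Ryk (r = 0.889) and Sos2 (r = 0.886).

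Relatives and partners of the members were taken as lists, and 0 genes of any list passed in limma. Over all tested genes the median AI minus AN difference was -0.0048, taken between plain means of the 7 AI and the 9 AN lines. The differences of the lists are means over F and P as in the limma fit, so the 2 measures are not the same. Of the 8 sequence relatives of the retrogenes, 5 were higher and 3 lower in AI, with a median of 0.063. Nap1l4, a histone chaperone, had the smallest p and differed by 0.09, and Mcts1, the source of Mcts2, by -0.20, and as for all genes of these lists the adjusted p was 0.999 in limma. Among AN lines Mcts1 was 32.9 ± 12.2 FPKM (SD, n = 4) for F and 22.5 ± 3.43 (SD, n = 5) for P, and among AI lines 21.4 ± 2.15 (SD, n = 4) for F and 24.8 ± 4.32 (SD, n = 3) for P. Its AI9, GS4 and GS9 values of 24.7, 20.5 and 29.2 lay within the range of its AN lines, 18.6 to 46.0. Denr, whose protein works with MCTS proteins, differed by 0.13 and Eif2d, which acts in ribosome recycling, by -0.24. Listed together, these had a median of -0.058 with 1 higher and 1 lower.

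Of 22 relatives of the host genes, 21 were tested, 7 higher and 14 lower in AI, with a median of -0.031. Commd9 differed by -0.20 and Commd8 by -0.35. Among the 8 minor spliceosome proteins, 6 were higher and 2 lower, with a median of 0.024, led by Snrnp25 at 0.19 and Rnpc3 at -0.20.

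Other imprinted genes and the genes that keep imprints were set beside the members. Of 10 genes of other nested imprinted pairs, 9 were tested, 4 higher and 5 lower in AI, with a median of -0.012. Nnat, itself nested in Blcap, differed by -0.82 and Airn by -0.18. Of 15 other paternally expressed genes, 13 were tested, 2 higher and 11 lower, with a median of -0.102, and after Nnat came Zdbf2 at -0.23. Of 10 imprint maintenance genes, 8 were higher and 2 lower, with a median of 0.082. Dnmt1, the maintenance methyltransferase, differed by 0.20 and Uhrf1, its recruiter, by 0.13.

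The cell types the cultures could hold were checked by marker lists. The summed FPKM of 8 pluripotency markers was 1690 to 2150 over AN lines, 1590 to 1980 over AI F and 1820 to 3080 over AI P, with Pou5f1 at 615 to 1220 in every line. The 10 fibroblast markers summed to 964 to 2410 over AN lines, 1240 to 2380 over AI F and 624 to 2080 over AI P, with 1 higher and 9 lower in AI and a median of -0.112. The 5 adipocyte progenitor markers, of the cell type from which the lines were made, summed to at most 31.9, with Pparg at most 0.332. The others were higher, with Ly6a at 7.84 to 22.0 FPKM, Cd34 at 1.77 to 4.6, Fabp4 at 0.787 to 3.66 and Pdgfra at 0.804 to 2.54. All 4 that were tested were higher in AI, with a median of 0.166, and Fabp4 differed by 0.46, at an adjusted p of 0.999 in limma. The 5 extraembryonic endoderm markers summed to 2.45 to 10.8, the 4 trophoblast markers to 4.49 to 44.1 with Elf5 at most 0.0791, and the 4 neural markers to at most 90.1. Of the other trophoblast markers, Eomes was 2.76 to 24.5 FPKM, Krt7 1.27 to 23.1 and Cdx2 0.383 to 10.5. None of the tested markers passed in AI against AN.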

How the data were processed

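RNA was sequenced from 16 cell lines as single reads of 50 bases with a kit that does not mark strand. The authors mapped reads to mm9 with TopHat 2.1.0 and computed FPKM with Cufflinks 2.2.1, and each gene name in what they deposited has a single FPKM for every line. The submitters' processing notes also list HTSeq, with no role given. The values were used as deposited.

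FPKM values were transformed to log2(FPKM + 1), so fold changes of low genes are understated, and 13185 genes with a mean of at least 0.5 FPKM were tested. AI was compared with AN in 1 fit of 4 groups with limma 3.58.1 (R 4.3.3), letting the prior variance follow the mean and adjusting by Benjamini-Hochberg over all genes. Members and ratios were also tested by exact two-sided permutation within F and within P, and relations by permutation with 100000 resamples over 16 lines (Python 3.11.15, scipy 1.17.1). Nothing says that lines came from separate animals, so p-values measure the spread between lines. F and P lines of the members were not tested against each other. The members, lists and tests were chosen with earlier results of these data known. Named genes are the members, the 3 genes most like each imprinted gene, and in each list those that passed or otherwise the 2 with the smallest p, besides Mcts1, Denr and the markers, and besides genes said to be named after their values were seen. Lists were matched by symbol, and Sppl2a and Sppl2b by RefSeq synonyms.

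On simulated data for AI versus AN with 13185 genes, 188 of 200 genes changed by a log2 of 1 were recovered with 12 false calls, and 195 of 200 changed by 2 with 8 false calls. With no change, 0 were called. These counts hold for the simulated noise alone, and recovery in the real lines was not tested. Spread there can be uneven, since Mcts2 had a log2 SD of 0.1 among AI F lines but 0.817 among AI P lines. The 0 genes called between AI and AN thus do not exclude changes of this size. Whole reads were found from the steps between FPKM values after the data had been seen, with the search range widened until most members resolved. Of the gene names, 95.7% were in the mm9 annotation. Protein sequences, methylation and quantitative PCR were not analysed here. Alternatives were other pseudocounts, filters, scalings and thresholds, no trend, passage as a term, F or P lines only, the GS lines left out, and each line left out. Removing the length trend and permuting within groups were chosen later, after seeing the data.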

Additional observations from a re-analysis of the deposited data

Results flagged for a closer look

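Among 30 group and gene or ratio combinations with at least 4 lines, 1 held a line far from the others of its group, and chance alone gives about 1 in 20, or 1.5 of 30. The log2 ratio of Zrsr1 to Commd1 was -2.30 in GS32, against -2.82 to -2.76 in the other 3 AI F lines, where GS32 had the highest Zrsr1 and the lowest Commd1 of its group.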

How the results depend on the processing

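The count of genes called between AI and AN was 0, and it became 1 with no filter, 9 without GS4, GS9 and GS32, and 0 to 1 when each line was left out, with 1 without AN1, GS32 or AI9. The AI minus AN difference of Zrsr1, 0.002, changed sign with passage as a term (-0.027), without the GS lines (-0.13) and in F lines only (-0.019), and was -0.043 to 0.049 with each line left out. That of Inpp5f became 0.003 with passage as a term and 0.005 without the GS lines, with a range of -0.14 to 0.005 over the lines left out. In P lines only, Commd1 was at 0.068 and H13 at -0.04. Mcts2 stayed below 0 in every alternative, from -0.54 to -0.17 with each line left out.

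The Mcts2 to H13 ratio passed an exact permutation p of 0.05 at -1.30 without the GS lines and at -0.63 with the length trend removed, and its range was -0.82 to -0.30 with each line left out. It passed without AN1 (-0.73), GS4 (-0.82) or GS9 (-0.74). The Nap1l5 to Herc3 ratio was -0.67 without the GS lines (exact permutation p = 0.00952). It no longer passed an exact permutation p of 0.05 at -0.66 with a pseudocount of 0.1, and its range with each line left out was -0.45 to -0.24, with the p above 0.05 without AN9, AN20, AI3, AI7 or AI9 and at 0.05 without AN1. The F minus P difference of Nap1l5 in AN was -0.24, and -0.61 with a pseudocount of 0.1. No paired analysis was possible because the lines carry names and not shared replicate numbers.

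Before adjustment, the p of the H13 and Mcts2 relation was above 0.05 without the 2 farthest lines (-0.458), when permuted within groups (-0.523), and without AN9, AN20, AN2, AN3, GS32, GS4 or AI9, and r ranged from -0.685 to -0.167 with each line left out. That of Zrsr1 and Mcts2 ranged from 0.054 without AI9 to 0.573 without AN15, where its unadjusted permutation p was 0.0219. That of Mcts2 and Nap1l5 ranged from 0.302 without AI9 to 0.601. That of Commd1 and Zrsr1 became -0.281 without the 2 farthest lines and ranged from -0.11 to 0.449, and that of Herc3 and Nap1l5 ranged from -0.235 to 0.101. Not centred, Zrsr1 and Inpp5f were at -0.171, and Mcts2 and Inpp5f at 0.005 without the 2 farthest lines. With each line left out, the ranges were -0.183 to 0.448 for Zrsr1 and Nap1l5, -0.059 to 0.29 for Zrsr1 and Inpp5f, -0.35 to 0.487 for Mcts2 and Inpp5f and -0.109 to 0.443 for Nap1l5 and Inpp5f. The cause of these changes was not tested. Depth limits Nap1l5 most, at 7 to 47 reads.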
